A study of Mus musculus with 12 samples.

Results

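The nuclear genes for the subunits of oxidative phosphorylation were followed in mouse regulatory T cells (Treg) by their symbols. Taken were all genes named Nduf with a, b, c, s or v and a digit, the genes Sdha, Sdhb, Sdhc and Sdhd, all Uqcr genes, the genes named Cox4 to Cox8 with the letter a, b, c or i, and all Atp5 genes. This rule matched 80 of the 16232 genes listed in vivo and 84 of the 24421 genes listed in vitro. A mean of at least 1 FPKM (fragments per kilobase of transcript, scaled to the library's fragments) over the libraries of the table was reached by 78 genes in each, and 76 of them passed in both. Each set of 78 held 36 genes of complex I, 4 of complex II, 8 of complex III, 13 of complex IV and 17 of complex V. Atp5md and Atp5mpl passed in vivo only, Atp5s and Atp5sl in vitro only, and the b subunit of complex V appeared as Atp5pb in vivo and as Atp5f1 in vitro. The symbols place some genes with a complex they do not build: Atp5s and Atp5sl are assembly or regulatory factors, Cox7a2l helps respiratory complexes to join into supercomplexes, and the Ndufa4 protein is now placed in complex IV. The mitochondrially encoded subunits were not analysed here.

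The series holds 12 libraries of polyadenylated RNA in 6 groups of 2. Treg of spleen and lymph nodes came from wild-type mice (WT) or from mice with a conditional knockout of Kdm2b (cKO), whose product is a histone demethylase and a subunit of a Polycomb complex. Each genotype had an in vivo group and 2 in vitro groups, 1 unstimulated and 1 stimulated. The sources used here name no age, sex, strain, Cre driver, stimulus, duration or number of animals per library. The 4 in vivo and the 8 in vitro libraries stand in separate tables that were normalized separately, and in vivo the words first and second library follow the table's order.

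Oxidative phosphorylation takes place in the inner mitochondrial membrane. Complex I (NADH dehydrogenase) and complex II (succinate dehydrogenase) pass electrons to ubiquinone, complex III passes them to cytochrome c, and complex IV (cytochrome c oxidase) hands them to oxygen. Complexes I, III and IV pump protons, and complex V (ATP synthase) uses the gradient to make ATP. The nuclear subunits are imported from the cytosol and assembled with those made from mitochondrial DNA, except in complex II, which is wholly nuclear. Treg are known for relying on mitochondrial respiration more than effector T cells do.

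The Treg markers Foxp3, Il2ra, Ctla4, Ikzf2 and Tnfrsf18 were above 0 in all 12 libraries. In vitro Foxp3, which defines the lineage, stood at 189 to 194 FPKM in unstimulated and 529 to 696 FPKM in stimulated WT libraries. In cKO it stood at 71.5 to 82.6 and 238 to 268 FPKM. Its genotype difference was not called in vitro (limma adjusted p = 0.0636 unstimulated and 0.0769 stimulated). Of the 5 markers 3 were below 0 in cKO over WT in each condition, while Ikzf2 was above 0 (log2 fold change 0.49 and 0.47). In vivo Foxp3 stood at 107 and 106 FPKM in WT and 114 and 117 FPKM in cKO. In vitro, 7 B cell markers summed to between 34.9 and 50.1 FPKM in the 4 WT libraries and to between 154 and 201 FPKM in the 4 cKO libraries. In vivo their sum was 52.5 FPKM and 68.2 FPKM in the WT libraries, above the cKO libraries with 17.38 FPKM and 25.95 FPKM. In vitro, 6 myeloid markers summed to 103.0 and 136 FPKM in unstimulated and 85.5 and 95.1 FPKM in stimulated WT libraries, and to 326 and 153 FPKM in unstimulated and 248 and 126 FPKM in stimulated cKO libraries. Haemoglobin genes made up 11.6% and 10.3% of all FPKM in the replicate 1 libraries of unstimulated and stimulated cKO cells, and at most 1.86% in the other 6 in vitro libraries. The replicate 2 libraries of unstimulated and stimulated WT cells had 12379 and 13273 genes at 0, against 9102 to 9857 in the other 6. Kdm2b was not called between the genotypes: it stood at 110 to 113 FPKM in WT and 125 to 146 FPKM in cKO in vivo, at 84.9 to 94.9 and 89.8 to 97.4 FPKM unstimulated, and at 71.7 to 74.5 and 66.3 to 70.5 FPKM stimulated, with limma adjusted p of 0.354, 0.978 and 0.778. Its cKO libraries were thus above the WT ones in vivo, overlapped unstimulated and were below stimulated. A value per gene does not show whether part of the transcript was deleted.

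The members were well expressed, and their levels spanned more than 2 orders of magnitude. The median of the 78 levels in a library ran from 55.5 to 70.5 FPKM in vivo and from 30.4 to 54.7 FPKM in vitro. Atp5b, the catalytic beta subunit of ATP synthase, had the highest mean level in both tables, with 354 to 416 FPKM over the 4 in vivo and 295 to 381 FPKM over the 8 in vitro libraries. Next in order in vivo came Cox4i1, a complex IV subunit that binds ATP (287 to 325 FPKM), Atp5a1, the alpha subunit of ATP synthase (251 to 286 FPKM), and Cox7a2l (252 to 306 FPKM). The range of Cox7a2l overlapped both others, while that of Cox4i1 began just above the highest value of Atp5a1. The tables were normalized separately, and they ranked the 76 shared members alike (Spearman's rho 0.84 over members, which are not independent replicates).

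Isoforms typical of other tissues were near or at 0. The complex IV subunits Cox4i2, Cox6a2 (a muscle isoform), Cox7b2, Cox8b and Cox8c and the complex I relative Ndufa4l2 did not reach a mean of 1 FPKM in the tables that list them. Cox6a2, just outside the threshold, had means of 0.40 FPKM in vivo and 0.31 FPKM in vitro, while Cox7a1 (1.08 FPKM in vivo) and Cox6b2 (1.08 FPKM in vitro) were just inside. Cox4i1 made up at least 99.7% of the Cox4i pair and Cox6b1 at least 97.3% of the Cox6b pair in every library. Cox7a1, the muscle isoform, took at most 0.889% of the Cox7a family, whose FPKM came mostly from Cox7a2l. The c subunit of ATP synthase, the ring that turns as protons pass, is encoded by 3 genes for the same mature protein: a median of 48.3% of its FPKM in vitro came from Atp5g2, 36.9% from Atp5g3 and 13.3% from Atp5g1, and in vivo the shares were 48.9%, 37.7% and 13.6%. The plot of isoform levels shows each library.

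**Figure D1:**
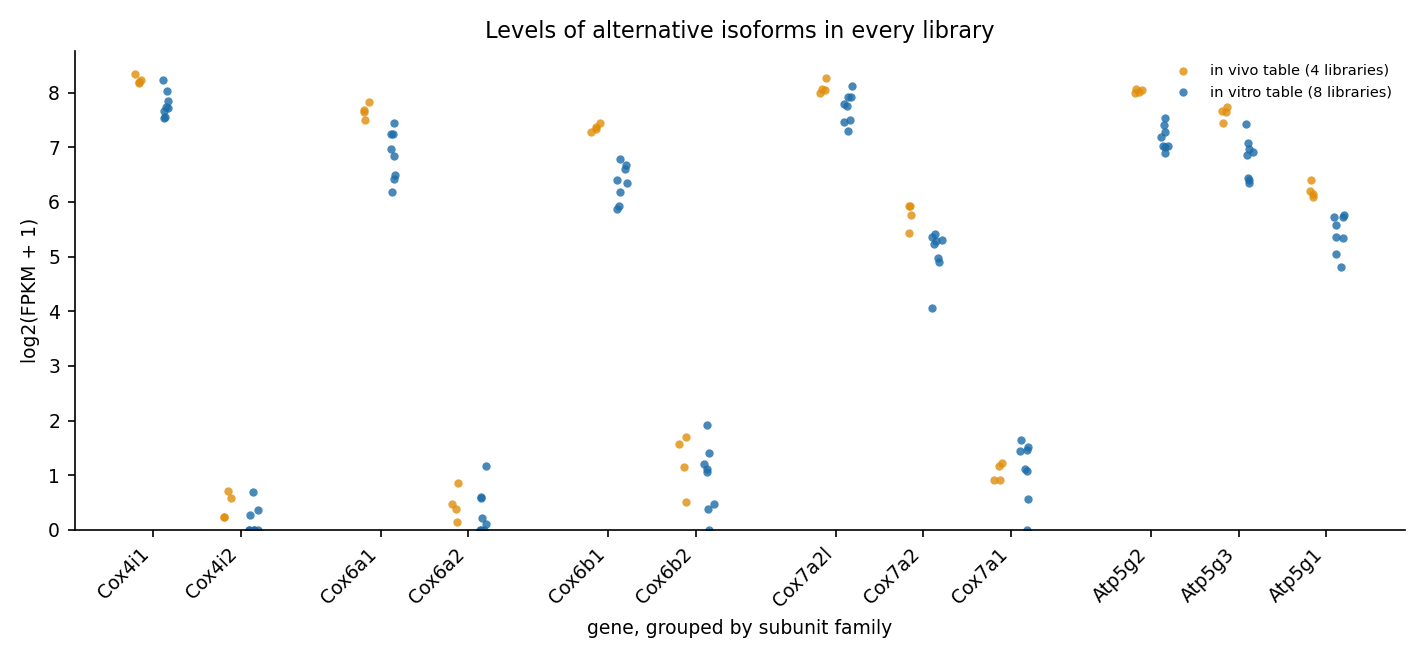
Levels of alternative isoforms, as log2(FPKM + 1), for genes grouped by subunit family on the horizontal axis. Each point is 1 library, orange for the 4 in vivo and blue for the 8 in vitro libraries; Cox4i2, Cox6a2, Cox6b2 and Cox7a1 lie below 2 on this scale, and the other 8 genes lie above 4.

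Stimulation was the comparison in which the members stood lowest. In WT cells the log2 fold change of stimulated over unstimulated cells was below 0 for 71 of 78 members, with a median of -0.39, and in cKO cells for 73 of 78, with a median of -0.37. Over all 10710 genes tested 54.3% were below 0 in WT (median -0.044) and 63.3% in cKO (median -0.14). No member passed the limma test in WT (adjusted p under 0.05 over all genes tested), where 0.822% of genes were called lower and 1.61% higher, and 17 members (16 lower, 1 higher) had an unadjusted limma p under 0.05, beside 10.1% of genes lower and 8.63% higher. In cKO cells 2 of 78 members were called lower, Ndufs7 and Atp5sl. This share was close to that of all genes, of which 2.49% were called lower and 2.08% higher. An unadjusted limma p under 0.05 was found for 15 members in cKO (14 lower, 1 higher), beside 14.5% of genes lower and 6.9% higher. Both stimulated libraries lay below both unstimulated ones for 30 of 78 members in WT, against 22.9% of all genes, and for 52 of 78 in cKO, against 44.1% of all genes. The WT and cKO comparisons share no library: 66 of the 78 members (84.6%) were below 0 in both, against 44.5% of all genes, and 21 (26.9%) were lower without overlap in both, against 16.7%. Leaving out 1 library moved the WT median between -0.59 (without unstimulated replicate 2) and -0.19 (without stimulated replicate 2). Leaving out 1 library kept the cKO median between -0.43 and -0.30, and without both cKO replicate 1 libraries it was -0.48. The count of members called in cKO was 18, with 17 lower, in a fit of the 4 cKO libraries alone. The share of all genes called in that fit is not given here, so the count is not read as a result about the members. The medians of complexes I, II, III and V were -0.46, -0.30, -0.35 and -0.31 in WT and -0.37, -0.44, -0.42 and -0.23 in cKO. In bulk RNA, fewer cells of a type and less RNA per cell cannot be told apart.

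**Figure D2:**
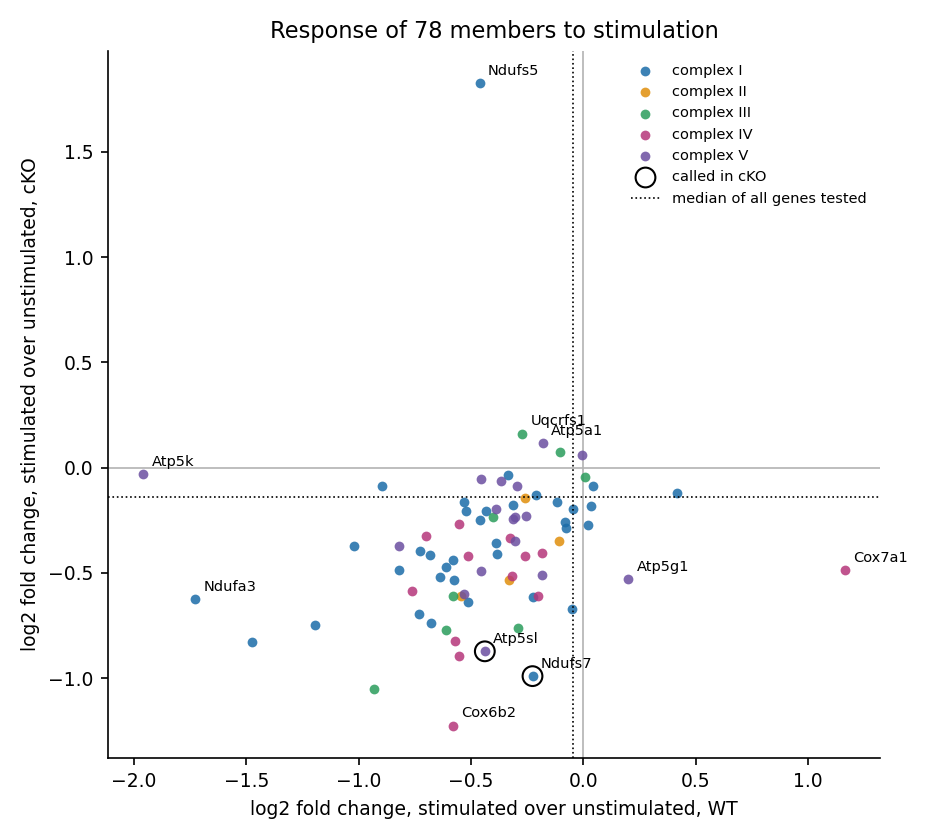
Log2 fold change of stimulated over unstimulated cells for each of the 78 in vitro members, in WT (horizontal) and cKO (vertical), coloured by complex. Most points lie in the lower left, below 0 in both genotypes; rings mark Ndufs7 and Atp5sl, called in cKO, and dotted lines give the medians of all genes tested (-0.04 in WT and -0.14 in cKO).

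Ndufs7, a core subunit of complex I that carries its last iron-sulfur cluster before ubiquinone, fell with stimulation in cKO cells. It stood at 31.3 and 40.1 FPKM in unstimulated and 17.0 and 17.7 FPKM in stimulated cKO libraries, and at 50.03 and 39.2 FPKM in unstimulated and 38.3 and 37.2 FPKM in stimulated WT libraries. The 2 stimulated cKO libraries were the lowest of the 8, well below all others, while in WT the stimulated libraries lay just below unstimulated replicate 2. In cKO the fold was called (log2 fold change -0.99, SE 0.18, limma adjusted p = 0.0268), and in WT it was not (log2 fold change -0.23, SE 0.18, limma adjusted p = 0.528). The difference between these responses did not pass the test (interaction log2 fold change -0.76, SE 0.25, limma adjusted p = 0.999). The fall was no longer called without any 1 of the 4 cKO libraries (adjusted p 0.0818 to 0.244), with no filter on low genes (0.0623) or without the intensity trend of the fit (0.0640).

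Atp5sl, also known as Dmac2, is an assembly factor of the membrane arm of complex I, despite its older name. It stood at 15.4 and 19.1 FPKM in unstimulated and 9.03 and 8.76 FPKM in stimulated cKO libraries, and at 19.6 and 19.0 FPKM in unstimulated and 14.4 and 13.5 FPKM in stimulated WT libraries. The stimulated libraries were below the unstimulated ones in both genotypes, and the stimulated cKO libraries were the lowest of all. The fold was called in cKO (log2 fold change -0.87, SE 0.17, limma adjusted p = 0.0353) and not in WT (log2 fold change -0.44, SE 0.17, limma adjusted p = 0.224). The call was lost under 3 of 4 other scalings (limma adjusted p 0.0532 to 0.0786), with no filter (0.0571), without the intensity trend (0.0613) and without any 1 of the 4 cKO libraries (0.104 to 0.321).

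Atp5j, coupling factor 6 in the peripheral stalk that holds the head of ATP synthase still, was the member with the smallest p among those not called in either genotype. Its levels were 58.6 and 53.3 FPKM in unstimulated and 40.2 and 36.6 FPKM in stimulated WT libraries, and 45.3 and 44.8 FPKM in unstimulated and 31.1 and 27.7 FPKM in stimulated cKO libraries. All 4 stimulated libraries lay below all 4 unstimulated ones. The fold was -0.53 in WT (limma adjusted p = 0.101) and -0.60 in cKO (limma adjusted p = 0.0547) on the log2 scale.

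The start regions of the called genes, and of Atp5j and Sdhd, whose levels were lower without overlap in both genotypes, are shown for comparison of their motifs. Each line gives 120 bases before to 30 bases from a RefSeq transcription start (GRCm38.p6), 5′ to 3′ on the gene's strand. Capitals mark matches on either strand to the NRF1 motif (GCGCA and GCGC with 1 base between them), the ETS motif CCGGAAG read by GABP, or the YY1 motif AANATGGC, factors known to act on many respiratory genes.
Ndufs7, chr10:80249329-80249478, plus strand: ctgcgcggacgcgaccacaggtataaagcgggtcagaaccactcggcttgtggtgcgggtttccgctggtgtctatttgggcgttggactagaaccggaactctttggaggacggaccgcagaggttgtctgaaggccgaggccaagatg
Atp5sl (RefSeq Dmac2), chr7:25619373-25619522, plus strand: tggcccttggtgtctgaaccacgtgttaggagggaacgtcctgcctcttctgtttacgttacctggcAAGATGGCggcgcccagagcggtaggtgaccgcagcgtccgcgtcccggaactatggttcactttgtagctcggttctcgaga
Atp5j, chr16:84834947-84835096, minus strand: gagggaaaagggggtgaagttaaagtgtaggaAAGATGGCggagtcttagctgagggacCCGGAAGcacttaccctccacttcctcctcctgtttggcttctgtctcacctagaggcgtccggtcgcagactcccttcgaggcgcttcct
Sdhd, chr9:50603820-50603969, minus strand: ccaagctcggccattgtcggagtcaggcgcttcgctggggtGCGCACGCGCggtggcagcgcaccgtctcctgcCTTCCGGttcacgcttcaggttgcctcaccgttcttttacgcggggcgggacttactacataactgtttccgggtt
The Sdhd window holds an NRF1 and an ETS match, the Atp5j window an ETS and a YY1 match, the Atp5sl window a YY1 match and the Ndufs7 window none of the 3. The Ndufs7 window ends in letters that could open a YY1 match, so a match across its end cannot be seen. RefSeq lists a second start for Atp5j and for Atp5sl, whose windows hold no match. Among 300-base windows around the starts of 68 members with an entry (74 windows), 63.5% held at least 1 of the 3 motifs, against 17.4% of all 32851 windows. NRF1 matched 24.3% against 4.603%, ETS 23.0% against 8.86% and YY1 25.7% against 6.05%. The median GC content was 58.0% in the member windows and 52.7% in all windows, and its part in these shares was not tested. A match is a string of letters and shows neither binding nor use.

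Within complex I the NADH-oxidizing and quinone-reducing core had medians closer to that of all genes than the accessory subunits had, a difference that was not tested, although Ndufs7 fell in cKO. The median was -0.23 in WT and -0.17 in cKO over the 7 nuclear core subunits, and -0.52 and -0.41 over the other 29. Ndufs1, the largest core subunit, stood at 29.0 and 24.3 FPKM in unstimulated and 25.9 and 28.8 FPKM in stimulated WT libraries and at 29.5 and 24.6 FPKM in unstimulated and 27.9 and 23.0 FPKM in stimulated cKO libraries, with both pairs overlapping. Ndufv1, which binds NADH and flavin, also overlapped in both genotypes (39.6 and 29.6 against 32.3 and 30.7 FPKM in WT, 31.5 and 33.9 against 32.1 and 26.3 FPKM in cKO).

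Among the accessory subunits of complex I, Ndufa9, next to the quinone site, had log2 fold changes of -0.21 in WT and -0.13 in cKO, and Ndufb8, of the membrane arm, -0.52 and -0.20. The lowest value of the complex in WT was that of Ndufa3, a small subunit. It stood at 53.8 and 36.5 FPKM in unstimulated and 28.2 and 5.41 FPKM in stimulated WT libraries, where stimulated replicate 2 is far below the rest, and at 31.3 and 46.4 FPKM in unstimulated and 27.4 and 21.7 FPKM in stimulated cKO libraries. Its folds of -1.73 and -0.63 on the log2 scale were not called (limma adjusted p = 0.185 and 0.615). Ndufc1 had the highest value of the complex in WT (0.42), where unstimulated replicate 2 stood apart at 4.62 FPKM against 17.1 FPKM in replicate 1.

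Ndufs5, a small accessory subunit on the intermembrane side of complex I, had the highest value of all members in cKO stimulation. It stood at 2.22 and 2.71 FPKM in unstimulated and 7.83 and 16.004 FPKM in stimulated cKO libraries, so that both stimulated libraries were higher. In WT it stood at 4.37 and 23.3 FPKM unstimulated and 4.83 and 10.8 FPKM stimulated, with the replicates further apart than the groups. None of its folds was called (log2 fold change 1.83, SE 0.68, limma adjusted p = 0.172 for stimulation in cKO; -1.73, adjusted p = 0.706, for cKO over WT unstimulated). In vivo its 4 libraries were close, with 26.1 and 25.6 FPKM in WT and 23.0 and 26.0 FPKM in cKO. The genome holds 1 other gene with a near-identical stretch of its transcript (at least 95% identity over at least 200 bases), with which fragments could be shared.

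The 4 genes of complex II were all below 0 with stimulation in both genotypes, and none was called. Sdhc and Sdhd, which anchor the enzyme in the membrane, gave -0.54 and -0.33 in WT and -0.61 and -0.53 in cKO (log2). Sdha, the flavoprotein that oxidizes succinate, gave -0.26 and -0.14, and Sdhb, the iron-sulfur subunit, -0.11 and -0.35. Sdhd was the clearest of the 4: 49.5 and 43.4 FPKM in unstimulated and 39.8 and 33.6 FPKM in stimulated WT libraries, and 40.2 and 44.1 FPKM in unstimulated and 28.4 and 29.1 FPKM in stimulated cKO libraries. No stimulated library reached an unstimulated one, and limma's adjusted p was 0.287 in WT and 0.0922 in cKO.

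In complex III the core proteins Uqcrc1 and Uqcrc2 stayed near 0 with stimulation, at 0.0081 and -0.10 in WT and -0.046 and 0.075 in cKO. The Rieske iron-sulfur protein Uqcrfs1 was at -0.27 in WT and 0.16 in cKO, where its stimulated libraries (71.8 and 70.0 FPKM) lay above the unstimulated ones (64.5 and 62.0 FPKM). The small subunit Uqcr11 had the lowest values, -0.93 and -1.05, and Uqcrb gave -0.58 and -0.61. Uqcrb stood at 45.7 and 43.7 FPKM in unstimulated and 39.9 and 21.8 FPKM in stimulated WT libraries and at 38.3 and 42.2 FPKM in unstimulated and 26.6 and 25.4 FPKM in stimulated cKO libraries, with no overlap in either genotype. None of the 8 was called (smallest limma adjusted p 0.157 in WT and 0.212 in cKO).

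Complex IV gave the lowest medians of the 5 complexes in both genotypes, -0.52 in WT and -0.49 in cKO, with 12 and 13 of 13 genes below 0. Cox8a, a small transmembrane subunit, stood at 110.3 and 95.5 FPKM in unstimulated and 97.5 and 48.4 FPKM in stimulated WT libraries and at 59.0 and 100.2 FPKM in unstimulated and 42.6 and 43.4 FPKM in stimulated cKO libraries. Cox6c, another small transmembrane subunit, stood at 99.0 and 63.9 FPKM in unstimulated and 72.3 and 40.1 FPKM in stimulated WT libraries and at 74.2 and 87.0 FPKM in unstimulated and 43.8 and 41.8 FPKM in stimulated cKO libraries. Both overlapped in WT and did not overlap in cKO, with log2 fold changes there of -0.82 (limma adjusted p = 0.214) and -0.89 (limma adjusted p = 0.130). For the other fixed members the WT and cKO values were -0.32 and -0.33 for Cox4i1, -0.19 and -0.40 for Cox5a, -0.32 and -0.51 for Cox5b, and -0.52 and -0.42 for Cox7c. The exception in this complex was Cox7a1 in WT, a low gene. It had 0.483 and 0 FPKM in unstimulated and 1.74 and 1.72 FPKM in stimulated WT libraries, the reverse of cKO (2.12 and 1.85 FPKM unstimulated, 1.11 and 1.16 FPKM stimulated), and no difference was called (interaction limma adjusted p = 0.999). Cox6b2, the testis isoform and also low, had the lowest value of the complex in cKO, with 1.64 and 2.76 FPKM in unstimulated and 0.389 and 0.308 FPKM in stimulated cKO libraries and at 0 in 1 stimulated WT library.

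In ATP synthase the head and the stalk were both below the median of all genes in WT, and in cKO the head was nearer to 0; the difference between them was not tested. The 5 genes of the F1 head had a median of -0.25 in WT and -0.063 in cKO, with 5 and 3 genes below 0, and the 4 genes of the peripheral stalk -0.49 and -0.29. Atp5e, the epsilon subunit, stood at 144 and 142 FPKM in unstimulated and 108 and 113 FPKM in stimulated WT libraries, which did not overlap, and overlapped in cKO (log2 -0.36 and -0.063). Atp5b stood at 381 and 295 FPKM in unstimulated and 372 and 299 FPKM in stimulated WT libraries and at 335 and 336 FPKM in unstimulated and 353 and 346 FPKM in stimulated cKO libraries. The cKO groups of Atp5b were apart in the upward direction by a log2 fold change of only 0.06, and those of Atp5a1 by 0.12. Atp5c1, the gamma subunit that turns inside the head, was at -0.30 and -0.23 and apart in the lower direction in both genotypes. Of the c ring genes Atp5g3 gave -0.45 and -0.49, Atp5g2 -0.31 and -0.24, and Atp5g1 0.20 and -0.53. Atp5k, subunit e of the membrane part, was listed at 0 in stimulated WT replicate 2 and at 21.8 FPKM in replicate 1, so no fold is given.

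The members are short transcripts, and shorter genes stood lower after stimulation whether members or not. Exonic lengths of members of either table ran from 362 (Atp5md) to 3171 bases (Sdhc), and 34 of the 78 in vitro members were under 700. In WT the median log2 fold change was -0.57 for members under 700 bases, -0.39 for the 16 from 700 up to 1000 and -0.26 for the 28 of at least 1000, against -0.28 for 478 other genes under 700 bases. In cKO the members gave -0.49, -0.43 and -0.20, against -0.39 for other genes under 700 bases. Rank correlations of fold change with length were 0.41 in WT and 0.38 in cKO over members, and 0.26 and 0.35 over other genes, given as a description since genes of a library are not independent. For the 13 members from 1000 up to 1500 bases the medians were -0.27 in both genotypes, against -0.20 in WT and -0.33 in cKO for other genes of that length. The part of length in the values of single members was not tested.

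**Figure D3:**
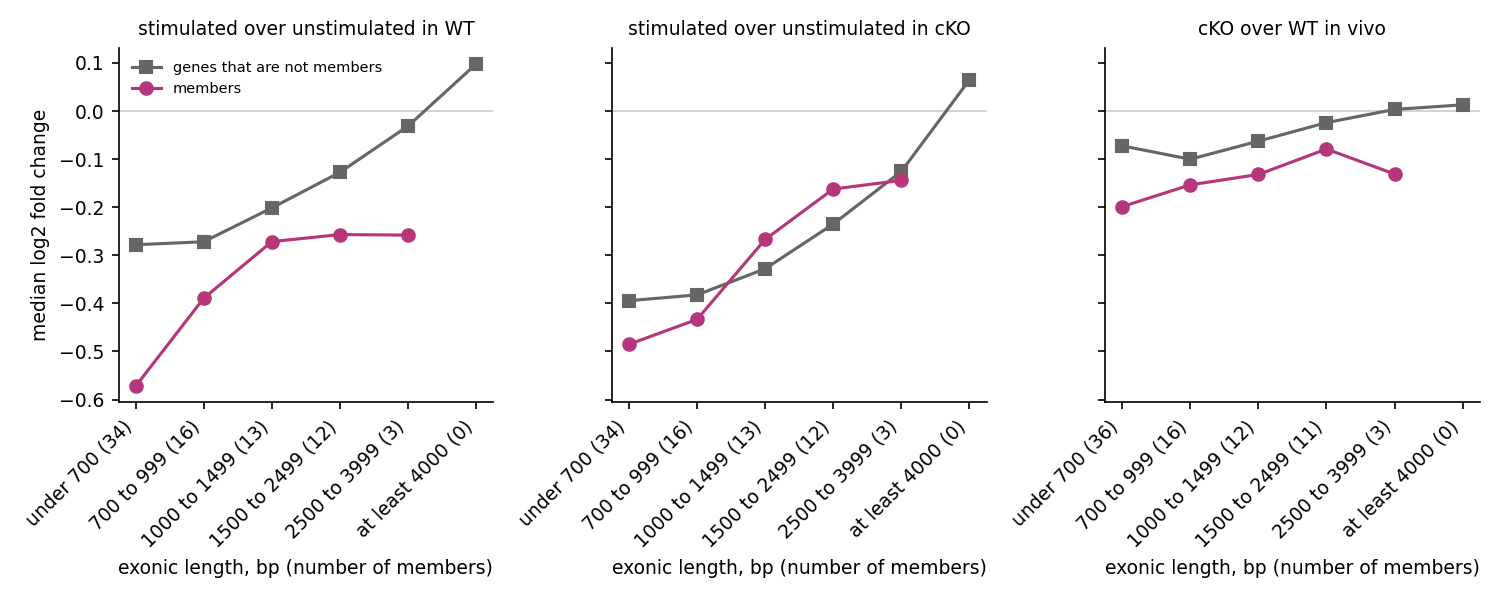
Median log2 fold change by exonic length class for members (circles, number in brackets on the axis) and for all other genes tested (squares), for stimulation in WT, stimulation in cKO and cKO over WT in vivo. Short genes lie lowest in both stimulation panels; in WT and in vivo the members lie below other genes of the same class, and in cKO they cross.

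The genotypes responded to stimulation with no difference that passed the test. The interaction was not called for any member or for any gene (0% in either direction), 4 of 78 members and 380 of 10710 genes (3.55%) had an unadjusted limma p under 0.05 (2.93% of genes below and 0.616% above 0), 37 members were below 0 (58.5% of genes), and the median over members was 0.034 against -0.076 over all genes. The members with unadjusted p under 0.05 were Ndufs5 in one direction and Cox7a1, Ndufs7 and Atp5g1 in the other. Atp5g1 stood at 52.1 and 39.8 FPKM in unstimulated and 51.7 and 53.4 FPKM in stimulated WT libraries and at 39.3 and 47.0 FPKM in unstimulated and 27.0 and 32.2 FPKM in stimulated cKO libraries, so that it was lower with stimulation in cKO and overlapped in WT. The other extremes of the interaction were Sdhb at -0.24 and Sdha at 0.11, Uqcrq at -0.47 and Uqcrfs1 at 0.43, and Cox7a2 at 0.38.

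Between unstimulated cKO and WT cells no member was called, where 0.056% of genes were called higher and 0.0187% lower; 3 members had an unadjusted limma p under 0.05, 2 lower and 1 higher, beside 6.56% of genes (2.75% lower, 3.81% higher). The median over members was -0.083, with 54 of 78 below 0 (46.9% of all genes). Groups were apart in the lower direction for 15 members, against 16.6% of all genes, and in the higher direction for 2, Cox6b2 and Cox7a1, against 17.8%. WT replicate 1 was the highest of the 8 libraries for 63 of 78 members. Without it the median was 0.14, and without WT replicate 2 it was -0.28. Ndufa5, an accessory subunit of complex I, had the smallest p of its complex: 39.4 and 35.9 FPKM in WT and 26.3 and 28.1 FPKM in cKO unstimulated, and 33.9 and 43.8 FPKM in WT and 23.9 and 23.7 FPKM in cKO stimulated, with limma adjusted p = 0.638 and 0.160. By complex the extremes were Ndufc1 at 0.68, Sdha at -0.15 and Sdhb at 0.019, Uqcrfs1 at -0.24 and Uqcr11 at 0.21, Cox8a at -0.41, and Atp5j at -0.30 and Atp5g2 at 0.062 on the log2 scale.

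Between stimulated cKO and WT cells no member was called either (0.0187% of genes higher, 0% lower), and 7 members, all lower, had an unadjusted limma p under 0.05, beside 9.75% of genes lower and 4.33% higher. The median over members was -0.029, near that of all genes (-0.045), with 44 of 78 below 0 (55.1% of genes). The median was above 0 under median-of-ratios scaling (0.061), under quantile normalization (0.065) and with haemoglobin genes removed (0.0056). Groups were apart lower for 15 members against 29.8% of all genes, and higher for 5 against 18.5%. Ndufs7 had the smallest p of all members, 38.3 and 37.2 FPKM in WT against 17.0 and 17.7 FPKM in cKO (log2 fold change -1.08, SE 0.18, limma adjusted p = 0.0912). Atp5g1 came next, 51.7 and 53.4 FPKM against 27.0 and 32.2 FPKM (log2 fold change -0.81, SE 0.18, limma adjusted p = 0.142). Other extremes were Ndufa3 at 0.89, Sdhd at -0.34 and Sdha at -0.035, Uqcrq at -0.42 and Uqcrc2 at 0.27, and Cox8a at -0.66 and Cox7a2l at 0.26. These genotype comparisons share libraries with the stimulation comparisons, and B cell, haemoglobin and, within each condition, myeloid transcripts were higher in the cKO libraries; their part in the member values was not tested.

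**Figure D4:**
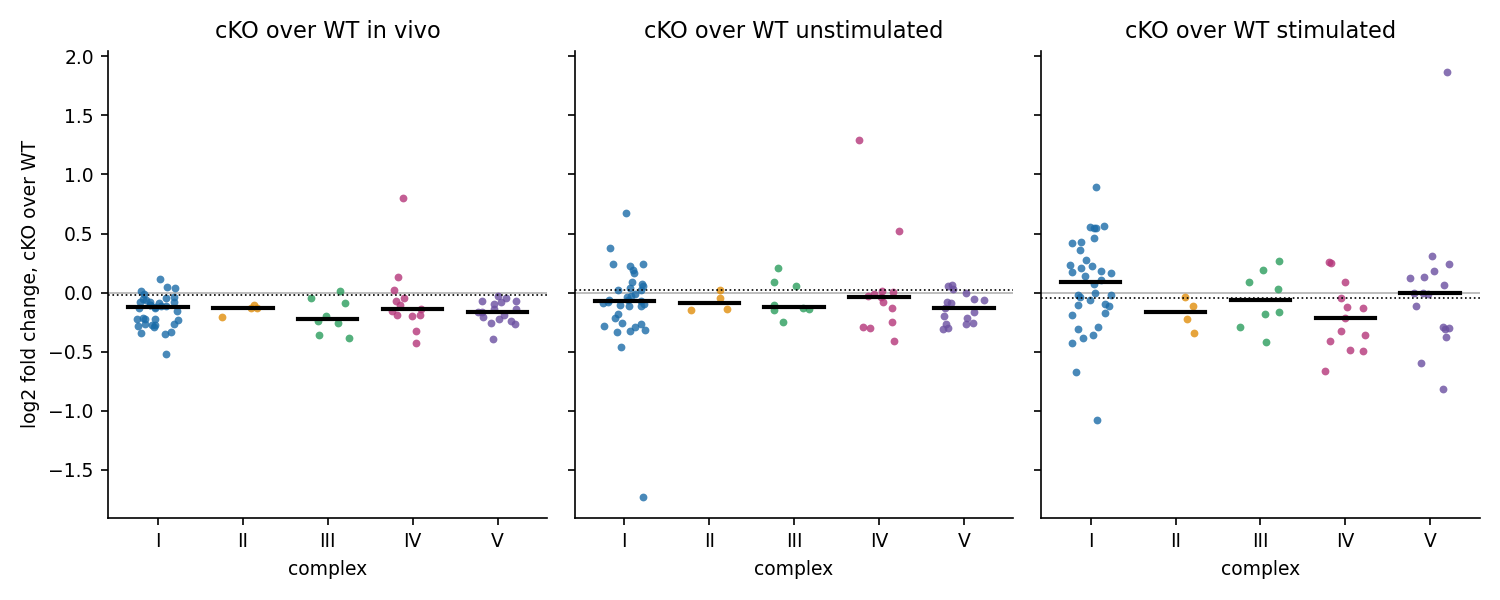
Log2 fold change of cKO over WT for each member by complex, in vivo, unstimulated and stimulated. Each point is 1 gene, thick bars are medians of a complex and the dotted line is the median of all genes tested; in vivo the 5 medians lie between -0.22 and -0.12, while the stimulated ones lie on both sides of 0.

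In vivo the members stood slightly lower in cKO than in WT, and no member passed the test. The log2 fold change was below 0 for 70 of 78 members, against 53.1% of 10415 genes, with a median of -0.14 against -0.016. Called were 0.23% of genes higher and 0.144% lower; 15 members had an unadjusted limma p under 0.05, 14 lower and 1 higher, beside 6.82% of genes lower and 6.14% higher. Both cKO libraries lay below both WT libraries for 41 members, against 25.8% of all genes, and above them for 1, Cox6b2, against 21.5%. The medians of complexes I to V were -0.12, -0.13, -0.22, -0.14 and -0.16, and all 17 genes of complex V were below 0, from Atp5md to Atp5g2 (-0.029). The members took 1.57% and 1.65% of all FPKM in WT and 1.43% and 1.53% in cKO, groups that do not overlap, though an exact two-sided permutation test of 2 against 2 libraries cannot give a p under 0.333. The first cKO library was the lowest for 63 members and the second WT library the highest for 57. Leaving out single libraries kept the median between -0.22 and -0.087.

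The lowest in vivo values came from small subunits. By exonic length, the in vivo medians were -0.20 for members under 700 bases and -0.10 for members of at least 1000. Other genes gave -0.072 under 700 bases and 0.013 at 4000 or more, and the part of length was not tested. Ndufc1, in the membrane arm of complex I, stood at 17.8 and 18.3 FPKM in WT and 10.5 and 14.4 FPKM in cKO (log2 fold change -0.52, SE 0.16, limma adjusted p = 0.274). Cox7b, of complex IV, stood at 52.7 and 57.6 FPKM in WT and 34.98 and 47.5 FPKM in cKO (log2 -0.42, limma adjusted p = 0.336). Atp5md, which takes part in the pairing of ATP synthases, stood at 153 and 195 FPKM in WT and 129.9 and 133 FPKM in cKO (-0.39, limma adjusted p = 0.298), and Uqcr10 of complex III at 86.0 and 95.2 FPKM in WT and 61.5 and 77.9 FPKM in cKO (-0.38). In each of these 4 the lower WT library was above the higher cKO library. Catalytic and core subunits did not stand apart from the rest as classes: the 5 genes of the F1 head had a median of -0.13, with 4 lower without overlap, and the 7 nuclear core subunits of complex I a median of -0.11, with 3 lower without overlap. Among the fixed members, Atp5b stood at 396 and 397 FPKM in WT and 354 and 416 FPKM in cKO, Sdha at 64.7 and 58.3 FPKM in WT and 52.3 and 59.9 FPKM in cKO, Uqcrc1 at 83.1 and 82.9 FPKM in WT and 80.1 and 87.7 FPKM in cKO and Ndufs1 at 22.9 and 22.5 FPKM in WT and 23.9 and 22.8 FPKM in cKO, all overlapping. Ndufa6 had the highest value of complex I (0.12), and in complex II Sdhc and Sdhd gave -0.20 and -0.11. The low gene Cox6b2 went the other way, from 0.430 and 1.21 FPKM in the WT libraries up to 2.25 and 1.96 FPKM in the cKO libraries (limma adjusted p = 0.248). B cell markers, which were lower in cKO in vivo, summed to no more than 68.2 FPKM. Below 0 in vivo were also 4 of 6 myeloid markers (median -0.16) and all 4 CD8 T and NK markers tested (median -0.30), none of them called. Of 2 erythroid markers tested none was below 0. The part of these transcripts in the member values was not tested.

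**Figure D5:**
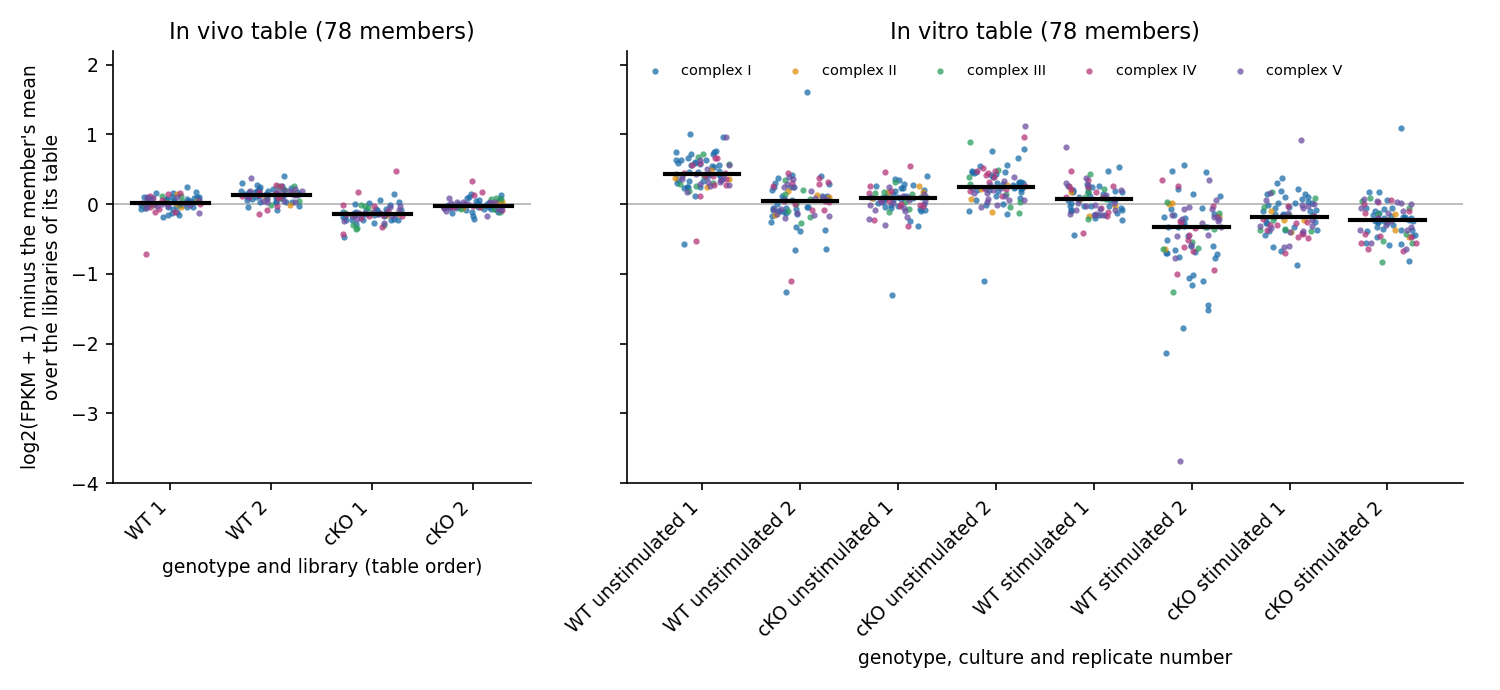
Each member's log2(FPKM + 1) in each library minus its mean over the libraries of its table, in vivo (left) and in vitro (right). Points are coloured by complex and black bars are library medians; in vivo the medians run from -0.14 (first cKO library) to 0.13 (second WT library), in vitro from -0.33 (stimulated WT replicate 2) to 0.43 (unstimulated WT replicate 1).

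Most members had similar profiles over the 8 in vitro libraries. The correlation of a member with the mean of the other members was above 0.8 for 40 of 78 and above 0.5 for 67, and below 0 for 2. It was highest for Ndufa2 (Pearson's r 0.97), and Ndufs5 (-0.59) and Cox7a1 (-0.25) were the 2 below 0. These values are a description over 8 libraries of 4 groups, and members share the scaling of their library. The same correlation is not given here for other genes, so likeness beyond theirs is not shown. In the plot by library, unstimulated WT replicate 1 is the highest and stimulated WT replicate 2 the lowest, and the latter was the lowest library for 40 members.

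Other genes of the pathway, in lists of genes outside the members, gave few calls. Most list medians were below 0 in vivo and with stimulation. In vivo 21 of 23 import genes were below 0 (median -0.14) and 14 of 17 citric acid cycle genes (-0.084). There the medians of complex II and III (0.11) and V (0.071) assembly factors and cytosolic ribosome (0.019) were above 0. With stimulation 53 and 63 of 77 mitochondrial ribosomal genes were below 0 in WT and cKO (-0.20 and -0.30). Medians above 0 were those of regulators in WT (0.15) and glycolysis in cKO (0.065). In cKO stimulation 1 of 9 assembly factors of complexes II and III fell: Sdhaf1, which delivers iron-sulfur clusters to complex II, from 48.5 ± 18.2 to 17.1 ± 0.744 FPKM (SD, n = 2; log2 fold change -1.40, limma adjusted p = 0.0264). Of 15 assembly factors of complex I, 22 of complex IV and 3 of complex V none was called in either genotype, nor was any of 17 genes of the citric acid cycle or of 21 other electron carriers. Of 77 mitochondrial ribosomal proteins 1 fell in cKO (Mrpl14, log2 fold change -1.03, limma adjusted p = 0.0446), and of 22 import genes 1 (Tomm34, -0.70, limma adjusted p = 0.0431), with none in WT. Of 15 regulators of mitochondrial genes Myc and Pprc1, a coactivator related to PGC-1, rose in both genotypes: Myc from 28.5 ± 10.9 to 116 ± 11.9 FPKM in WT and from 34.1 ± 12.3 to 100 ± 11.1 FPKM in cKO (SD, n = 2; limma adjusted p = 0.0167 and 0.0340), and Pprc1 by log2 fold changes of 1.30 and 1.13 (limma adjusted p = 0.0401 and 0.0466). Of 20 glycolytic genes Slc16a3, a lactate exporter, fell in both genotypes (log2 fold change -1.15 in WT and -1.38 in cKO, limma adjusted p = 0.0441 and 0.0193) and Eno1, enolase, rose in cKO (0.80, limma adjusted p = 0.0353). The 77 cytosolic ribosomal proteins, also short transcripts, had medians of -0.38 in WT and -0.18 in cKO with no call. In vivo and between genotypes in vitro none of these lists had a called gene except Slc16a3, which rose in cKO in vivo (log2 fold change 1.44, limma adjusted p = 0.0374).

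Some member values may include fragments of other genes. Of the 80 distinct members 26 have at least 1 near-identical stretch in another gene (at least 95% identity over at least 200 bases), with up to 9 such genes for Atp5l, and 19 overlap exons of a gene on the opposite strand by at least 50 bases, 3 of one on the same strand. Ndufs7 (GRCm38 chr10:80249121-80256794, plus strand) and Atp5sl (Dmac2, chr7:25619414-25625551, plus strand) have neither. Atp5j (chr16:84827866-84835625, minus strand) overlaps exons of Gabpa on the opposite strand, and the sources used here do not say whether counting used strand.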

How the data were processed

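Polyadenylated RNA of 12 libraries was measured. The authors deposited FPKM per gene in 2 tables, 1 for the in vivo and 1 for the in vitro libraries; HISAT2 2.2.1 and StringTie 2.1.1 and the builds mm10 and hg19 are named, per the submitters' processing notes, without a role. A further 4 columns matched none of the labelled samples and were left out. Groups come from the sample titles; in vivo columns name the genotype and not the replicate number. FPKM are not counts and show no whole-read steps, so the depth is unknown. Nothing says that replicates came from separate animals, so p-values measure the spread between libraries, which may be technical.

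For each table a linear model was fitted in R 4.3.3 by limma 3.58.1 (two-sided, eBayes with an intensity trend) on log2(FPKM + 1), a scale that understates the change of low genes, for genes whose table mean reached 1 FPKM; the 8 in vitro libraries shared 1 model. Calls needed an adjusted p under 0.05, by the Benjamini-Hochberg method across every gene of the fit. In vivo Entrez numbers were matched to RefSeq symbols (16196 of 16232), and 24300 of 24421 in vitro symbols were matched. Coordinates and exonic lengths are from GENCODE (GRCm38), promoters from RefSeq (GRCm38.p6). The fit was tested on simulated data.

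The members, gene lists, tests and the rule for named genes were chosen with earlier results of these data known. The rule names called members, the highest and lowest member of each complex, a fixed set of defining subunits, isoform families, members at 0 in a library and the extremes of likeness; genes named for another reason were chosen after their values were seen. Of the fixed set, 1 subunit is not reported here. Roles of members (core, stalk, head) and 4 alternatives were also added after seeing the data. Alternatives were another pseudocount, filter, scaling, fit or set of members, the replicate number as a block and leaving out each library.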

Additional observations from a re-analysis of the deposited data

How the results depend on the processing

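In vivo, unstimulated, in WT stimulation and in the interaction the count of called members was 0 under every alternative that kept all libraries, and so was that of stimulated cKO over WT. Leaving out 1 library gave 0 to 16 called members in vivo, 0 to 2 in stimulated cKO over WT, 0 to 14 in WT stimulation and 0 to 3 in cKO stimulation. Each of these fits left 1 library in a group. In the fits with the highest counts more of all genes were called too, higher and lower, than with all libraries. The counts without 1 library are therefore not read as a result about the members. For cKO stimulation, with 2 called, the count was 0 with no filter and 0 with no intensity trend. It was 1 under median-of-ratios scaling, 1 under common-sum (TPM) scaling and 1 with haemoglobin genes removed. It was 1 among members in both tables (Atp5sl is not in both) and 1 among the 28 members of at least 1 kb (Ndufs7 is shorter). With only the 4 samples compared it was 18 (17 lower), and the share of all genes called in that fit is not given here. The member median kept its sign under every alternative in vivo and in both stimulation comparisons, between -0.22 and -0.087, -0.59 and -0.19, and -0.43 and -0.30 when single libraries were left out (cKO stimulation -0.48 without both cKO replicate 1 libraries). It ran from -0.28 to 0.14 unstimulated, from -0.26 to 0.15 in stimulated cKO over WT and from -0.20 to 0.25 in the interaction. For stimulated cKO over WT (main value -0.029) it was 0.061 under median-of-ratios scaling, 0.065 under quantile normalization, 0.0056 with haemoglobin genes removed and -0.26 without both WT replicate 2 libraries. Without those libraries the unstimulated median was -0.28, and without both cKO replicate 1 libraries the interaction median was -0.11. In cKO stimulation other scalings raised the median of all genes by 0.10 to 0.13 and in WT common-sum scaling, with or without haemoglobin genes, raised it by 0.11; relative to all genes the member median was -0.33 to -0.34 in WT and -0.22 to -0.27 in cKO under all 5 scalings. The alternatives by length, without both libraries of a number and with crossed numbers were chosen after seeing the data. The cause of these shifts was not tested. In vitro, same-numbered libraries of 1 genotype deviated together (correlations 0.24 in WT and 0.42 in cKO), those of different genotypes did not (-0.14 unstimulated, 0.04 stimulated), and with 2 pairs a comparison the samples share only a number. With the replicate number as a block the called members were 0 unstimulated, 0 stimulated, 0 in WT stimulation, 2 in cKO stimulation and 0 in the interaction, and with crossed numbers 0 unstimulated (14 genes against 8). In vivo no paired analysis was possible because the columns carry no replicate numbers. Depth is unknown, so counting error could not be separated from the spread of replicates.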
